A study of Mus musculus with 6 samples.

Results

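The genes described here carry cystine into the cell and hold peroxides and oxidised thiols in check. They are 10 of the 46517 genes counted, namely *Slc7a11*, *Gclc*, *Gclm*, *Gsr*, *Gpx1*, *Gpx3*, *Gpx4*, *Txnrd1*, *Nqo1* and *Hmox1*. *Slc7a11* was chosen by its fold change, which stood among the largest increases in *Hdac3* knock out fat, so its values are given as a description and not tested. The 9 other genes were listed by function, with earlier results of these data known, and were read from a fit over all genes. All 10 passed the filter on low counts.

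RNA-seq was performed on poly(A) RNA from inguinal white adipose tissue (IngWAT), the subcutaneous fat depot of the mouse flank, in 3 samples of *Hdac3* floxed mice and 3 samples of H3atKO mice. *Hdac3* encodes a histone deacetylase that works in co-repressor complexes, and the comparison asks what its loss in fat does to the transcriptome. H3atKO mice carried the floxed *Hdac3* alleles together with the Adipoq-cre transgene (B6;FVB-Tg(Adipoq-cre)1Evdr/J), and the floxed mice had the floxed alleles without Cre. The adiponectin promoter drives Cre in adipocytes, so blood, vessel, immune and stromal cells of the depot keep the gene in both groups. Both groups were C57Bl6 males of 5 to 9 months on a chow diet, and no drug or cold exposure is named for them. Each sample was a pool of RNA from 2 or 3 animals, so that errors and p-values reflect the spread between pools, and individual mice cannot be followed. In whole tissue, fewer cells of a type and less RNA per cell cannot be told apart.

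xCT, the protein of *Slc7a11*, exchanges intracellular glutamate for extracellular cystine, which is reduced to cysteine, the amino acid that usually limits glutathione synthesis. Glutathione serves the glutathione peroxidases as the electron donor against peroxides and is recycled by glutathione reductase at the expense of NADPH, while thioredoxin reductase runs a parallel thiol system. Many of these genes are classical targets of the transcription factor Nrf2, which binds antioxidant response elements (ARE), and *Slc7a11* is also a target of ATF4, the factor of the amino acid and endoplasmic reticulum stress responses. In fat, these systems face the peroxides that fatty acid oxidation and respiration give off.

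The promoters of *Slc7a11* and *Gclm*, the genes with the largest differences towards H3atKO, and of *Txnrd1*, which differed little, are printed because each holds letters of an ARE or an ATF4-type site. RefSeq promoter windows (GRCm38.p6, 250 bases before to 50 bases after a start) matched 7 of the 10 genes with 12 windows, and *Gclc*, *Gsr* and *Hmox1* were not among them. Both strands were searched for the ARE core TGACNNNGC (GCNNNGTCA on the other strand) and for TGATGNAA (TTNCATCA on the other strand), letters typical of sites that ATF4 binds together with C/EBP factors. The ARE core was found in 12.4% and the ATF4-type letters in 3.97% of the 32851 windows of this length, and no matches overlapped. The *Slc7a11* window held 2 ATF4-type matches, 66 and 47 bases before the start, in opposite orientation and 11 bases apart, and no ARE core. The *Gclm* window held 1 ARE core 134 bases before the start, and 1 of the *Txnrd1* windows held 1 ARE core 92 bases before its start. Neither set of letters was found in the windows of *Gpx1*, *Gpx3*, *Gpx4* and *Nqo1*, which says nothing of these factors. The 250 bases before each start follow 5′ to 3′ in the direction of the gene, at chr3:50443614-50443863 (minus strand), chr3:122245307-122245556 (plus strand) and chr10:82858956-82859205 (plus strand), with the matching letters in capitals.
Slc7a11: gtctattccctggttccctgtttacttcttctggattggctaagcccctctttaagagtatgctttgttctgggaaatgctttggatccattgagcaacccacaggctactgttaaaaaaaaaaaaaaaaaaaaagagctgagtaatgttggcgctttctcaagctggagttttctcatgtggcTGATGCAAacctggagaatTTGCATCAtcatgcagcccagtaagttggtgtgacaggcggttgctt
Gclm: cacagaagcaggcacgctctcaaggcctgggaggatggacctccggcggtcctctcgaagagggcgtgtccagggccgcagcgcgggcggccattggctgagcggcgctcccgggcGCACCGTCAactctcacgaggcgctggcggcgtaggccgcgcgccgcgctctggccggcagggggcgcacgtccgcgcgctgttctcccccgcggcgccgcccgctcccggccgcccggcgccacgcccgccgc
Txnrd1: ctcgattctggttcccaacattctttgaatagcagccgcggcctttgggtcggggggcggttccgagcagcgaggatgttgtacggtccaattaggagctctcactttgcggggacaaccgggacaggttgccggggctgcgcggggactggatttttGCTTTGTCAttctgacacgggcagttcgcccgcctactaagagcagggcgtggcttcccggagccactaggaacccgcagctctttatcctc

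Levels below are in cpm, the counts of a gene relative to the size of its library scaled with TMM factors, and differences are log2 fold changes of H3atKO against floxed from limma voom, with adjusted p-values (Benjamini-Hochberg) over 14967 genes and a call at an adjusted p under 0.05. *Hdac3* itself measured 68.9, 80.3 and 65.8 cpm in floxed replicates 1 to 3 and 27.4, 21.1 and 12.9 cpm in H3atKO replicates 1 to 3 and fell 3.55-fold (log2 fold change -1.83, SE 0.32, adjusted p = 0.0213). The libraries held 23865507 to 35200685 counts on genes. The mitochondrial genome took 6.92% to 12.9% of them in floxed and 26.9% to 35.3% in H3atKO samples. Leaving it out before scaling gave the same counts of calls among the genes described here. Summed adipocyte markers were high throughout (13196 to 28609.8 cpm in floxed, 15228 to 26334 cpm in H3atKO), and 6 other sums, in the same order, were 19.6 to 82.8 and 239 to 1076 cpm for brown adipocytes, 4.62 to 100.3 and 11.9 to 421 cpm for lymphocytes, 538 to 2271 and 2.28 to 3088 cpm for skeletal muscle, 531 to 896 and 389.6 to 521 cpm for endothelium, 1308 to 4091 and 872 to 1482 cpm for stromal progenitors, and 0.481 to 2.90 and 0 to 4.55 cpm for epithelium. The muscle sum was lowest in H3atKO replicate 3 and highest in H3atKO replicate 2. *Fabp4* was the largest part of the adipocyte sum in every sample. Limma called 0 of the 6 adipocyte markers, while edgeR called *Lipe* lower (adjusted p = 0.0318) and 0 higher. The replicate block and DESeq2 each called 2 of 6 lower and 0 higher, beside 28.7% and 23.2% of all genes lower. Log2 fold changes of the 6 ran from -3.04 (*Lipe*) to 0.05 (*Fabp4*). *Elovl3* was the largest part of the brown adipocyte sum in H3atKO samples and the only 1 of 4 called by limma, higher. Of endothelial markers limma called 2 of 5 lower, of stromal progenitor markers 1 of 5, and 0 higher. Fold changes fell with the GC content of the transcript across all genes, from a median of 1.13 in the 10% of genes lowest in GC to -2.19 in the 10% highest, and a value corrected for GC is therefore given for each of the 10 genes. The source of this slope was not tested.

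Of the 9 genes listed by function, 2 were called higher in H3atKO IngWAT (*Gclm* and *Gsr*) and 1 lower (*Gpx3*), and 6 were not called. Over all genes tested, 9.42% were called higher and 7.07% lower. The largest of these differences were a 4.02-fold higher level of *Gclm*, the modifier subunit of the enzyme that starts glutathione synthesis, and a 10.7-fold lower level of *Gpx3*, the secreted glutathione peroxidase. The median log2 fold change of the 9 genes was 0.36, against -0.09 for all genes. After GC correction the calls were again 2 higher and 1 lower and involved the same genes, with 5.46% and 3.2% called over all genes and a median of 0.98 against 0.02. With the replicate number as a block, 3 were higher and 3 lower, beside 24.8% and 28.7% of all genes, and with the block and GC correction together 3 were higher and 1 lower, beside 12.9% and 9.84%. edgeR called 3 higher and 2 lower, beside 12.8% and 18.4% of all genes, and DESeq2 called 3 and 2, beside 19.7% and 23.2%. Scaled by library size alone, 1 was higher and 3 lower, beside 2.04% and 37.9% of all genes, while the median of all genes moved to -0.94. The samples of the genotypes did not overlap for 5 of the 9 genes, 3 above and 2 below, beside 23.1% and 28.6% of all genes, and an exact permutation test cannot go below 0.1 with 3 samples against 3.

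**Figure D1:**
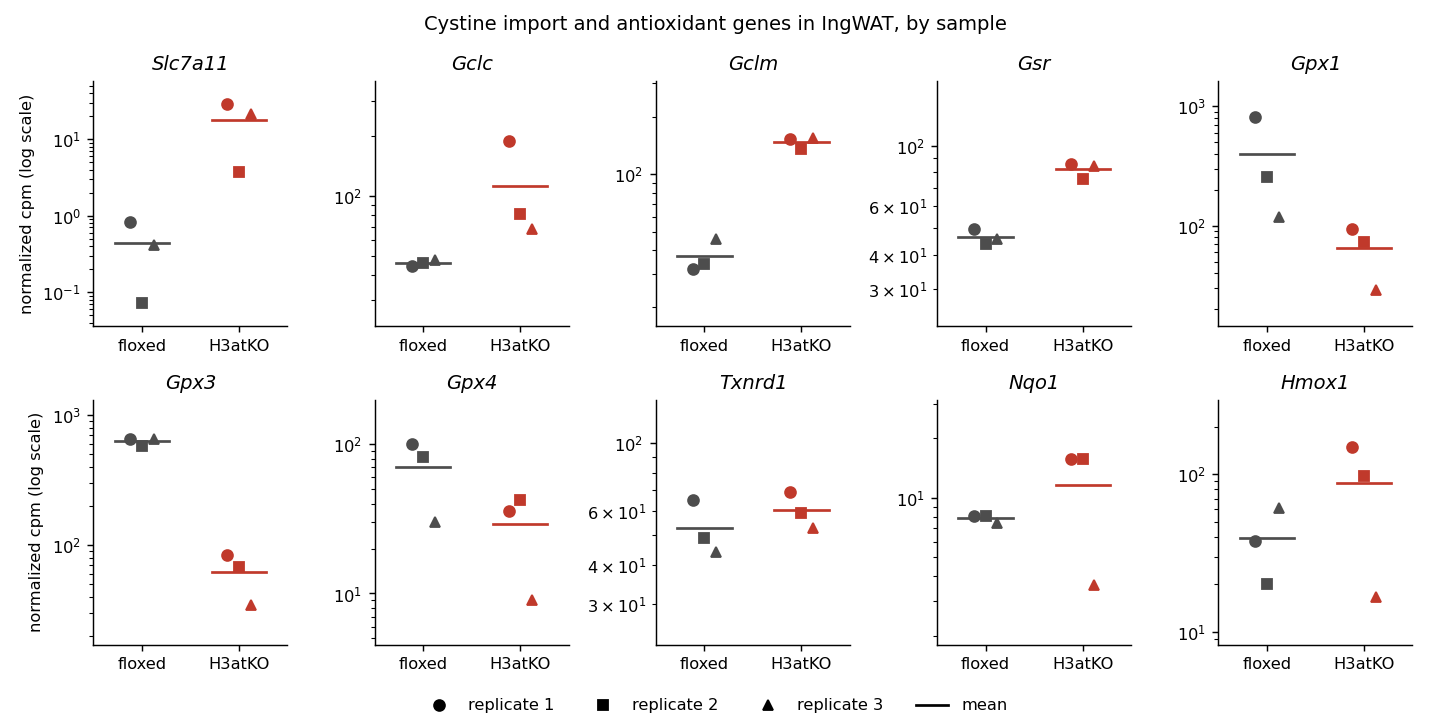
Normalized level (cpm, log axis) of the 10 genes in each IngWAT sample, with floxed samples in grey, H3atKO samples in red, a symbol for each replicate number and the mean as a line. *Slc7a11*, *Gclc*, *Gclm* and *Gsr* lie above and *Gpx1* and *Gpx3* below the floxed range in all 3 H3atKO samples, and H3atKO replicate 3 is the lowest sample for *Gpx4*, *Nqo1* and *Hmox1*.

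*Slc7a11*, the cystine carrier, was barely detected in floxed IngWAT and present in every H3atKO sample. The gene lies on the minus strand at chr3:49892526-50443614 (GRCm38). Its raw counts were 38, 3 and 17 in the floxed libraries, taken in the order of their numbers, and 698, 73 and 333 in the H3atKO libraries. This corresponded to 0.834, 0.0721 and 0.413 cpm in floxed and 28.7, 3.72 and 21.1 cpm in H3atKO samples, so that the lowest H3atKO sample was above the highest floxed sample. Within each group the samples spread widely, by 11.6-fold in floxed and 7.72-fold in H3atKO, and replicate 2 was the lowest of both groups. The log2 fold change was 5.39 (SE 1.29), or 42.1-fold, which placed the gene 14 from the top of the 14967 genes. It was 4.38 after GC correction, 4.47 with library sizes alone, and between 4.46 and 6.25 when each sample was left out in turn. No p-value is given for these values, since they chose the gene.

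The ratio of *Slc7a11* between H3atKO and floxed samples of the same replicate number was 34.5 (24.9 to 49.1) for replicate 1, 51.6 (17.0 to 256) for replicate 2 and 51.0 (31.3 to 88.5) for replicate 3, with exact 95% intervals that cover counting error only. The intervals do not allow for the choice of the gene by its rise, and the ratio for replicate 2 rests on 3 floxed counts. The labels do not state that samples of the same number are paired. Levels spread 11.6-fold within floxed and 7.72-fold within H3atKO samples, so the ratios depend on this pairing. The genes whose pattern over the 6 samples was most like that of *Slc7a11*, by the root mean square difference of centred log2 cpm among 11642 genes, were *P2ry10* (0.879), *Gpr174* (0.902), *Camk4* (0.945), *Tnfsf8* (1.07) and *Ehhadh* (1.09). *P2ry10*, *Gpr174*, *Camk4* and *Tnfsf8* are known from lymphocytes, and *Ehhadh* encodes a peroxisomal enzyme of fatty acid oxidation. Values were centred on the mean of all 6 samples, so the rise that chose *Slc7a11* enters this measure. The 5 genes had log2 fold changes from 3.74 (*Camk4*) to 5.03 (*Ehhadh*), and their order is a description only.

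Lymphocyte markers moved with *Slc7a11* in part. The sum of 7 B and T lymphocyte markers was 100.3, 5.67 and 4.62 cpm in floxed and 297, 11.9 and 421 cpm in H3atKO replicates 1 to 3. *Ms4a1* was the largest part of it in H3atKO replicates 1 and 3 (143 and 311 cpm). *Cd79a* measured 23.6, 0.457 and 0.267 cpm in floxed and 13.4, 0.0510 and 4.49 cpm in H3atKO samples (log2 fold change 0.21). None of the 7 was at 0 in any sample, and 0 of 7 were called by limma or by edgeR, with 1 higher at an unadjusted p under 0.05. At that unadjusted p, 3056 of all 14967 genes were higher and 3506 lower. The replicate block called 4 of 7 higher and DESeq2 called 2 of 7 higher. Floxed replicate 1 had the highest sum of its group, and so did H3atKO replicate 3. Replicate 2 had a low sum in both groups. The part of lymphocytes in the *Slc7a11* values was not tested.

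**Figure D2:**
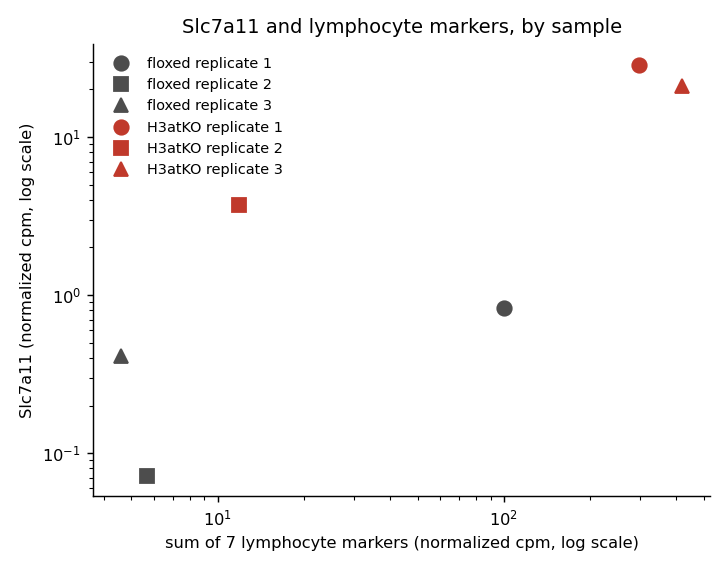
*Slc7a11* level against the sum of 7 lymphocyte markers in each sample, both in normalized cpm on log axes, with floxed samples in grey and H3atKO samples in red. The 3 H3atKO samples lie above 3.7 cpm of *Slc7a11* and the floxed samples lie below 0.84 cpm.

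xCT reaches the cell surface only together with the heavy chain encoded by *Slc3a2*, which many amino acid transporters share. *Slc3a2* measured 171, 122 and 86.0 cpm in floxed and 119.7, 70.8 and 37.3 cpm in H3atKO samples, and the groups overlapped. It was not called by limma on genotype alone (log2 fold change -0.81, SE 0.45, adjusted p = 0.196). It was called lower with the replicate block (adjusted p = 0.0173) and with library sizes alone (-1.68, adjusted p = 0.0307), and its value after GC correction was 0.12 (adjusted p = 0.801).

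The modifier subunit of the ligase that joins glutamate to cysteine, the first step of glutathione synthesis, was higher in H3atKO IngWAT. *Gclm* (chr3:122245557-122270732) measured 32.0, 33.9 and 45.6 cpm in floxed replicates 1 to 3 and 153, 136 and 154 cpm in H3atKO replicates 1 to 3. The 3 H3atKO samples lay within 1.14-fold of each other and all above the floxed samples. *Gclm* rose 4.02-fold (log2 fold change 2.01, SE 0.23, adjusted p = 0.00946), by 1.10 on the log2 scale after GC correction (adjusted p = 0.0232). The call was lost without floxed replicate 2 (log2 fold change 1.95, adjusted p = 0.0579). Exons of *Gclm* overlap those of Gm6061 on the same strand and of Gm17494 on the other strand, so some reads cannot be assigned with certainty.

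The catalytic subunit, *Gclc* (chr9:77754535-77794485), was also above floxed in every H3atKO sample, but unevenly. It measured 44.3, 46.0 and 47.7 cpm in floxed replicates 1 to 3 and 189.7, 80.8 and 68.3 cpm in H3atKO replicates 1 to 3, with H3atKO replicate 1 far above the other samples. The floxed samples were within 1.08-fold of each other and the H3atKO samples within 2.78-fold. *Gclc* was not called by limma (log2 fold change 1.15, SE 0.39, adjusted p = 0.0699, 95% interval 0.24 to 2.06). It passed with the replicate block (adjusted p = 0.0306), in edgeR (0.0465) and in DESeq2 (0.00990), and missed the threshold after GC correction (0.99, adjusted p = 0.138). Without H3atKO replicate 1 its log2 fold change was 0.68 (adjusted p = 0.140).

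*Gsr* (chr8:33652523-33698163), the reductase that returns oxidised glutathione to its thiol form, varied little within both groups. It measured 49.5, 43.9 and 45.6 cpm in floxed replicates 1 to 3 and 86.0, 75.8 and 84.1 cpm in H3atKO replicates 1 to 3, with no overlap and a spread of 1.13-fold and 1.13-fold within the groups. *Gsr* rose 1.77-fold (log2 fold change 0.82, SE 0.21, adjusted p = 0.0414), and by 1.03 on the log2 scale after GC correction (adjusted p = 0.0206). The call was close to the threshold. It was lost without any of floxed replicates 1 and 2 and H3atKO replicates 1 to 3, with adjusted p-values between 0.0885 and 0.153 and a log2 fold change between 0.77 and 0.87. With library sizes alone the difference disappeared (-0.03, adjusted p = 0.939), on a scale where the median gene stood at -0.94.

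The 3 glutathione peroxidases had lower means in H3atKO IngWAT, and *Gpx3* was called. *Gpx3* (chr11:54902453-54910377), which encodes the peroxidase of plasma and extracellular fluid, measured 654, 577 and 657 cpm in floxed replicates 1 to 3 and 83.7, 67.7 and 34.4 cpm in H3atKO replicates 1 to 3. All H3atKO samples were far below the floxed range, which was narrow (1.14-fold). *Gpx3* fell 10.7-fold (log2 fold change -3.41, SE 0.35, adjusted p = 0.00793). After GC correction the log2 fold change was -1.87 (adjusted p = 0.0305). The call was lost without floxed replicate 2, where the log2 fold change was -3.48 (adjusted p = 0.0516).

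*Gpx1* (chr9:108338903-108340343) encodes the abundant intracellular peroxidase that reduces hydrogen peroxide. It measured 809.8, 255 and 119 cpm in floxed replicates 1 to 3 and 94.8, 72.7 and 29.1 cpm in H3atKO replicates 1 to 3. The groups did not overlap, but floxed replicate 1 was 6.79-fold above floxed replicate 3, and *Gpx1* was not called (log2 fold change -2.28, SE 0.73, adjusted p = 0.0624, 95% interval -3.98 to -0.58). With the replicate block it was called lower (adjusted p = 0.00338), as in edgeR (0.0389) and without floxed replicate 3 (log2 fold change -2.92, adjusted p = 0.0121). After GC correction the groups overlapped and the log2 fold change shrank to -0.48 (adjusted p = 0.364). *Gpx1* is abundant in red blood cells, and the sum of 6 erythroid markers was 268, 225 and 73.1 cpm in floxed and 44.6, 80.4 and 86.1 cpm in H3atKO replicates 1 to 3, with 1 of 5 tested (*Alas2*) called lower by limma and 1 (*Hba-a2*) at 0 in H3atKO replicate 3. edgeR called 3 of 5 lower, *Hba-a1* (adjusted p = 0.0221), *Hba-a2* (0.0278) and *Alas2* (0.0282). The part of blood in the *Gpx1* values was not tested.

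*Gpx4* (chr10:80047166-80056439), the only peroxidase of the family that reduces lipid hydroperoxides within membranes, measured 99.5, 82.0 and 30.2 cpm in floxed replicates 1 to 3 and 35.9, 42.6 and 9.10 cpm in H3atKO replicates 1 to 3. Replicate 3 was the lowest sample of both groups, and the groups overlapped. *Gpx4* was not called (log2 fold change -1.31, SE 0.67, adjusted p = 0.163). Its direction depended on the treatment of GC content, which at 60.2% was the highest among the 10 genes. With the replicate block the log2 fold change was -1.34 and called lower (adjusted p = 0.00552), and without floxed replicate 3 it was -1.84 (adjusted p = 0.0366). With the block and GC correction together it was 1.06 and called higher (adjusted p = 0.0473), and with GC correction alone it was 0.98 (adjusted p = 0.122). Reads of the pseudogene Gpx4-ps2 may also be shared with *Gpx4*.

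*Txnrd1* (chr10:82833951-82897712), the cytosolic reductase of thioredoxin, differed little between the genotypes. It measured 65.03, 49.0 and 44.3 cpm in floxed replicates 1 to 3 and 69.0, 59.2 and 52.9 cpm in H3atKO replicates 1 to 3, and the ranges overlapped. The log2 fold change was 0.21 (SE 0.25, 95% interval -0.37 to 0.80, adjusted p = 0.530), 0.33 after GC correction (adjusted p = 0.281), and -0.65 with library sizes alone (adjusted p = 0.131).

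*Nqo1* (chr8:107388225-107403206), a quinone reductase and a standard readout of Nrf2, differed among the H3atKO samples more than between the groups. It measured 8.12, 8.06 and 7.41 cpm in floxed replicates 1 to 3 and 15.6, 15.8 and 3.60 cpm in H3atKO replicates 1 to 3. H3atKO replicates 1 and 2 were above the floxed range, while H3atKO replicate 3 was below it. The gene was not called (log2 fold change 0.36, SE 0.55, adjusted p = 0.631, 95% interval -0.93 to 1.65). After GC correction its log2 fold change was 0.05 (adjusted p = 0.959). Leaving out a sample moved the log2 fold change between -0.04 and 1.00, the highest value being that without H3atKO replicate 3.

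*Hmox1* (chr8:75093621-75100589), the inducible heme oxygenase that breaks heme down to biliverdin, iron and carbon monoxide, was also lowest in H3atKO replicate 3. It measured 37.6, 20.2 and 61.0 cpm in floxed replicates 1 to 3 and 149, 98.0 and 16.6 cpm in H3atKO replicates 1 to 3. H3atKO replicates 1 and 2 exceeded all floxed samples and H3atKO replicate 3 was below them. The gene was not called (log2 fold change 0.85, SE 0.80, adjusted p = 0.428, 95% interval -1.02 to 2.71). After GC correction the log2 fold change was 1.76 (adjusted p = 0.176). Without H3atKO replicate 3 it was 1.76 (adjusted p = 0.120), without H3atKO replicate 1 it was 0.19 (adjusted p = 0.876), and with sample quality weights it was 1.94 (adjusted p = 0.0179). Macrophages are rich in *Hmox1*, and the sum of 7 macrophage markers was 578, 424 and 2302 cpm in floxed and 592, 363 and 655 cpm in H3atKO replicates 1 to 3, with 1 of 7 (*Csf1r*) called lower and none at 0 in any sample. Floxed replicate 3 had the highest marker sum and the highest *Hmox1* level of its group, and H3atKO replicate 3 the highest marker sum of its group with the lowest *Hmox1* level. The part of macrophages in these values was not tested.

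**Figure D3:**
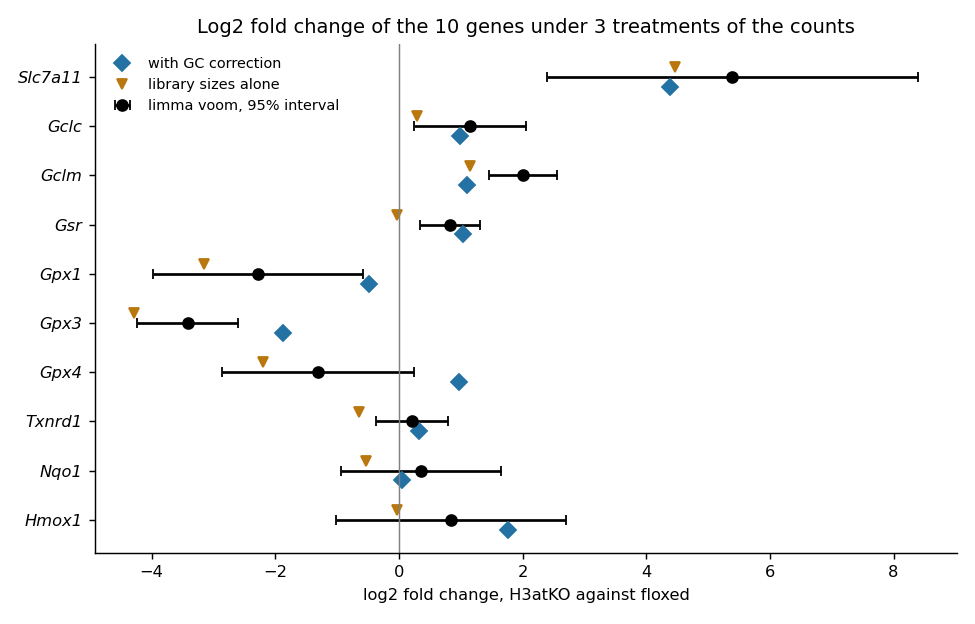
Log2 fold change of H3atKO against floxed for the 10 genes from limma voom (black, with 95% intervals, which for *Slc7a11* take no account of its choice by fold change), after GC correction (blue) and with library sizes alone (orange). *Slc7a11*, *Gclc* and *Gclm* are above 0 and *Gpx1* and *Gpx3* below 0 in all 3, *Gpx4* is -1.31 in the first and 0.98 after GC correction, and *Gsr*, *Txnrd1*, *Nqo1* and *Hmox1* pass to or below 0 with library sizes alone.

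The GC content of the longest transcript ran from 40.7% for *Slc7a11* and 42.1% for *Gclm* to 57.2% for *Gpx1* and 60.2% for *Gpx4*, and the order of the 10 genes by fold change in part followed the trend of all genes. Genes as low in GC as *Slc7a11* had a median log2 fold change of 1.13, and genes as high as *Gpx4* a median of -2.19. *Slc7a11*, *Gclm*, *Gclc*, *Gsr*, *Txnrd1*, *Hmox1* and *Gpx4* lay above the median of genes with their GC content, *Gpx1* and *Gpx3* lay below, and *Nqo1* was at 0.36 where that median was 0.38.

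**Figure D4:**
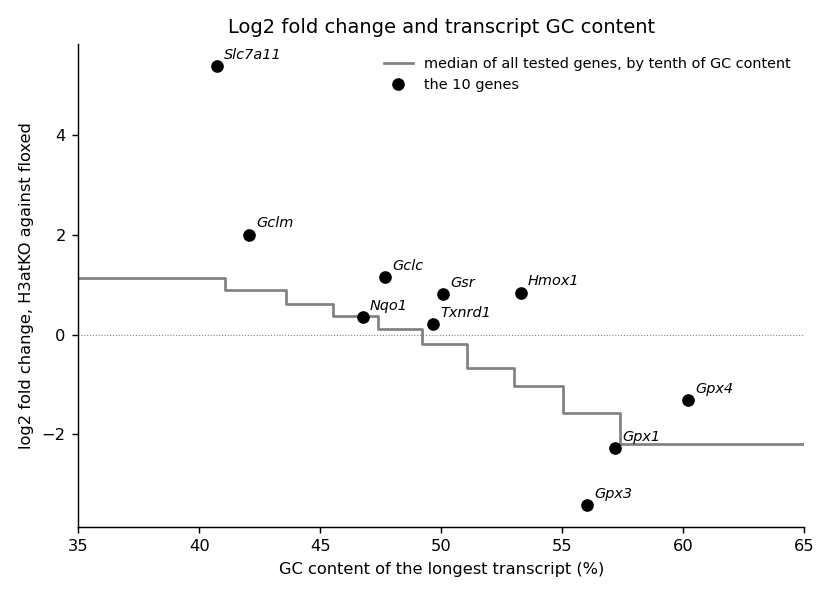
Log2 fold change of the 10 genes (black) against the GC content of their longest transcript in percent, with the median of all tested genes in 10 bins of GC content with nearly equal numbers of genes as a grey line. The line descends from 1.13 to -2.19, *Slc7a11* stands furthest above it and *Gpx3* below it.

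Levels between genes were compared per kilobase of exon. In floxed IngWAT the order of mean cpm per kilobase (± SD, n = 3) was *Gpx3* (347 ± 25.1), *Gpx1* (274 ± 254), *Gpx4* (40.9 ± 20.9), *Hmox1* (22.6 ± 11.7), *Gsr* (16.8 ± 1.04), *Gclc* (12.2 ± 0.446), *Txnrd1* (7.45 ± 1.53), *Gclm* (5.90 ± 1.17), *Nqo1* (5.06 ± 0.252) and *Slc7a11* (0.0316 ± 0.0274). Among neighbours in that order, *Gpx1* and *Gpx4*, *Gsr* and *Gclc*, *Gclc* and *Txnrd1*, and *Nqo1* and *Slc7a11* did not overlap, and the other pairs did. The peroxidases thus headed the floxed order, and the cystine carrier closed it by a wide margin.

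In H3atKO IngWAT the range of these levels, which are not corrected for GC, was narrower. *Slc7a11*, at its lower end, was chosen for its rise. *Hmox1* (50.2 ± 38.2), *Gpx1* (45.5 ± 23.2), *Gpx3* (34.1 ± 13.9), *Gclc* (30.0 ± 17.7) and *Gsr* (29.8 ± 1.96) led, each overlapping its neighbour. *Gclm* (23.5 ± 1.62) was apart from *Gsr* and overlapped *Gpx4* (16.9 ± 10.3), which was followed by *Txnrd1* (8.52 ± 1.14) and *Nqo1* (7.51 ± 4.50). *Slc7a11* (1.28 ± 0.921) was still the lowest and apart from *Nqo1*. These levels rest on the union of annotated exons, which for *Slc7a11* is 13922 bases, the longest of the 10 genes.

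The wider systems around these genes were read from 13 lists of 220 genes by function, of which 219 were found in the files and 204 tested. Of the 204 genes, 21 (10.3%) were called higher and 21 (10.3%) lower, beside 9.42% and 7.07% of all genes, and their median log2 fold change was -0.48 against -0.09. After GC correction 14 were higher and 11 lower, with a median of -0.02 against 0.02, beside 5.46% and 3.2% of all genes called. The replicate block gave 38 higher and 81 lower, beside 24.8% and 28.7% of all genes, and library sizes alone gave 4 higher and 94 lower, beside 2.04% and 37.9%. Without floxed replicate 2 no gene of these lists passed, and over all 14860 genes tested then 1 passed. At an unadjusted p under 0.05 in limma, 29 genes of the lists were higher and 40 lower, beside 1926 and 2407 of all genes.

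**Figure D5:**
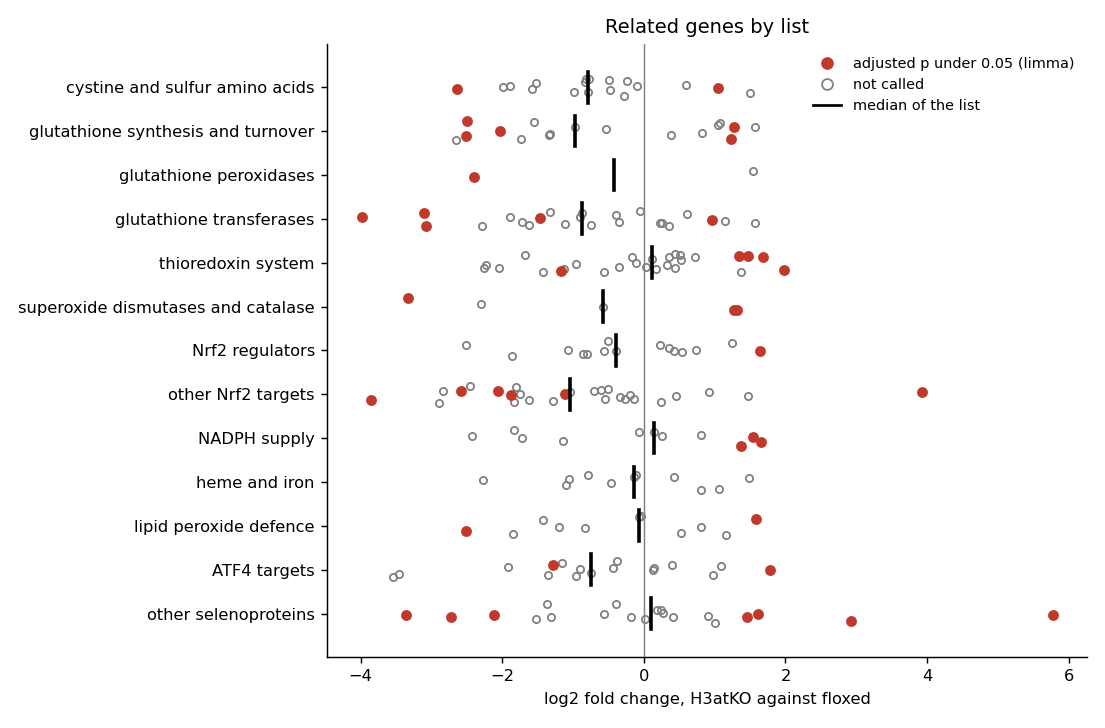
Log2 fold change of H3atKO against floxed for each tested gene of 13 related lists (filled red, adjusted p under 0.05 in limma; open grey, not called), with the list median as a black line. Each list except heme and iron holds called genes, and 9 of them hold called genes on both sides of 0.

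Among genes of cystine and sulfur amino acid metabolism, 1 of 18 tested was higher and 1 lower. *Cdo1*, the dioxygenase that commits cysteine to taurine and sulfate, rose 2.07-fold, from 732, 666 and 859 cpm in floxed to 1269, 2212 and 1321 cpm in H3atKO samples (log2 fold change 1.05, adjusted p = 0.0490). *Slc1a4*, a carrier of neutral amino acids, fell 6.22-fold (log2 fold change -2.64, adjusted p = 0.0453). Neither passed after GC correction, where *Cdo1* was at 0.96 (adjusted p = 0.0661) and *Slc1a4* at -1.80 (adjusted p = 0.0888).

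In the synthesis and turnover of glutathione, 2 of 17 genes were higher and 3 lower. *Ggct*, a cyclotransferase that takes apart gamma-glutamyl peptides, rose (log2 fold change 1.27, adjusted p = 0.0437), as did *Slc25a40*, a mitochondrial glutathione carrier (log2 fold change 1.23, adjusted p = 0.0467). The genes that fell encode enzymes of the cell surface that cut extracellular glutathione and its dipeptide, namely *Dpep1* (log2 fold change -2.51, adjusted p = 0.00946), *Ggt5* (log2 fold change -2.50, adjusted p = 0.0177) and *Anpep* (log2 fold change -2.04, adjusted p = 0.0437). *Dpep1* measured 123, 88.0 and 135 cpm in floxed and 21.3, 22.2 and 16.2 cpm in H3atKO samples, without overlap. After GC correction *Slc25a40* (0.14, adjusted p = 0.568) and *Anpep* (-1.12, adjusted p = 0.304) were not called. *Gss*, glutathione synthetase, which completes the tripeptide, measured 14.97, 12.2 and 4.93 cpm in floxed and 5.89, 4.23 and 2.09 cpm in H3atKO samples and was not called by limma (log2 fold change -1.34, adjusted p = 0.130), but it was called lower with the replicate block (adjusted p = 0.00670).

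The other glutathione peroxidases were mostly silent in IngWAT, with 2 of 5 tested. *Gpx7*, a peroxidase of the endoplasmic reticulum, fell (log2 fold change -2.39, adjusted p = 0.0331), although not after GC correction (-0.97, adjusted p = 0.129). *Gpx8*, also of the endoplasmic reticulum, lay above floxed in all H3atKO samples and was not called by limma on genotype alone (log2 fold change 1.54, adjusted p = 0.0568). It was called higher with the replicate block (adjusted p = 0.00976). Of 23 glutathione transferases, which couple glutathione to electrophiles, 1 was higher (*Mgst2*, log2 fold change 0.96, adjusted p = 0.0453) and 4 lower. The 4 were *Mgst3* (log2 fold change -3.98, adjusted p = 0.0481), *Gstm1* (log2 fold change -3.11, adjusted p = 0.0300), *Gstt1* (log2 fold change -3.08, adjusted p = 0.0333) and *Gstt3* (log2 fold change -1.47, adjusted p = 0.0440). *Gstm1* measured 318, 257 and 91.6 cpm in floxed and 24.2, 44.8 and 9.74 cpm in H3atKO samples, and it kept its call after GC correction (adjusted p = 0.0434). *Mgst2*, *Mgst3*, *Gstt1* and *Gstt3* were then not called (adjusted p = 0.141, 0.0743, 0.0636 and 0.255). Transferases of a class are close copies, so their reads cannot always be told apart.

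The thioredoxin system had 4 of 27 genes higher and 1 lower. *Txn1*, cytosolic thioredoxin and the substrate of *Txnrd1*, measured 77.9, 79.4 and 98.6 cpm in floxed and 182, 246 and 226 cpm in H3atKO samples and rose 2.55-fold (log2 fold change 1.35, adjusted p = 0.0213). The peroxiredoxins *Prdx1* of the cytosol (log2 fold change 1.69, adjusted p = 0.0332) and *Prdx3* of mitochondria (log2 fold change 1.47, adjusted p = 0.0184) rose too, as did *Txnl1*, a thioredoxin-like protein (log2 fold change 1.97, adjusted p = 0.00920). *Txnip*, which binds and inhibits thioredoxin, measured 2835, 3422 and 1975 cpm in floxed and 1083, 1325 and 1181 cpm in H3atKO samples and fell 2.24-fold (log2 fold change -1.17, adjusted p = 0.0367). After GC correction *Txn1*, *Prdx3* and *Txnip* were still called, whereas *Prdx1* (0.81, adjusted p = 0.228) and *Txnl1* (0.86, adjusted p = 0.0738) were not.

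The other thioredoxin reductases had lower values than in floxed samples, with *Txnrd2* of mitochondria at -2.25 (adjusted p = 0.0663) and *Txnrd3* at -0.95 (adjusted p = 0.0851). Neither was called by limma on genotype alone. The replicate block called both lower (adjusted p = 0.00341 and 0.0146), as did DESeq2 (0.00161 and 0.0446). The fit with library sizes alone also called both lower (0.0151 and 0.0146), and edgeR called *Txnrd2* (0.0326). These fits called 18.4% to 37.9% of all genes lower. After GC correction neither was called, with *Txnrd2* at -0.97 (adjusted p = 0.201) and *Txnrd3* at -0.22 (adjusted p = 0.574). *Srxn1*, sulfiredoxin, which repairs overoxidised peroxiredoxins, measured 29.1, 25.5 and 33.3 cpm in floxed and 178, 75.5 and 30.4 cpm in H3atKO samples. H3atKO replicates 1 and 2 were above the floxed range and replicate 3 within it, and the call was reached only after GC correction among the limma fits shown here (1.38, adjusted p = 0.111; 2.30, adjusted p = 0.0444 after GC correction).

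Among superoxide dismutases and catalase, 2 of 5 were higher and 1 lower. *Cat*, the peroxisomal catalase, measured 1572, 1204 and 1245 cpm in floxed and 3246, 3769 and 3013 cpm in H3atKO samples and rose 2.50-fold (log2 fold change 1.32, adjusted p = 0.0240), and was called after GC correction too (adjusted p = 0.0194). *Sod2*, the mitochondrial dismutase, rose 2.41-fold (log2 fold change 1.27, adjusted p = 0.0251), but not after GC correction (0.38, adjusted p = 0.503). *Sod3*, the extracellular dismutase, measured 564, 333 and 95.5 cpm in floxed and 22.7, 50.1 and 14.8 cpm in H3atKO samples and fell 10.03-fold (log2 fold change -3.33, adjusted p = 0.0327). *Sod1* of the cytosol was not called (log2 fold change -0.58, adjusted p = 0.302).

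Of 15 regulators of Nrf2, 1 was higher and 0 lower by limma, with 2 in each direction at an unadjusted p under 0.05 and 1 and 2 by edgeR. Over all 14967 genes, 3056 were higher and 3506 lower at that unadjusted p. *Cul3*, the scaffold of the ligase that marks Nrf2 for degradation, rose (log2 fold change 1.65, adjusted p = 0.0241) but not after GC correction (0.50, adjusted p = 0.117). *Nfe2l2*, which encodes Nrf2, measured 82.8, 95.2 and 132 cpm in floxed and 148, 145 and 150.4 cpm in H3atKO samples. Its groups did not overlap, and it was not called (log2 fold change 0.55, adjusted p = 0.129). *Keap1*, the adaptor between Nrf2 and that ligase, was at -0.39 (adjusted p = 0.447) and became 1.57 after GC correction (adjusted p = 0.0262). *Bach1*, a repressor at Nrf2 sites (log2 fold change 0.74, adjusted p = 0.0787), and *Sqstm1*, which binds Keap1 (log2 fold change 0.35, adjusted p = 0.555), were not called. *Bach1* was called higher with the replicate block (adjusted p = 0.0135), and *Sqstm1* after GC correction (1.41, adjusted p = 0.0292).

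Of 27 other Nrf2 targets, 1 was higher and 5 lower. *Me1*, the cytosolic malic enzyme, which makes NADPH, measured 165, 182 and 202 cpm in floxed and 1898, 3729.7 and 2989 cpm in H3atKO samples and rose 15.2-fold (log2 fold change 3.93, adjusted p = 0.00615). The 5 that fell were *Ugt1a6b* (-3.85), *Abcc3* (-2.58), *Akr1b8* (-2.07), *Ephx1* (-1.87) and *Blvra* (-1.11), enzymes and a transporter of conjugation and detoxification with biliverdin reductase among them, with adjusted p-values between 0.0209 and 0.0405. After GC correction *Akr1b8* was not called (adjusted p = 0.0543). *Ugt1a6b* shares exons with other *Ugt1a* genes, and its count is uncertain. *G6pdx*, the first enzyme of the pentose phosphate pathway, (log2 fold change -0.55, adjusted p = 0.494) and *Fth1*, the ferritin heavy chain, (log2 fold change -0.70, adjusted p = 0.197) were not called.

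NADPH supply had 3 of 11 genes higher and 0 lower by limma, with 4 lower at an unadjusted p under 0.05 and 2 by edgeR. The 3 were *Me2* (log2 fold change 1.66, adjusted p = 0.0215), a mitochondrial malic enzyme, *Idh1* (log2 fold change 1.55, adjusted p = 0.0360), the cytosolic isocitrate dehydrogenase, and *Nadk2* (log2 fold change 1.37, adjusted p = 0.0480), the mitochondrial NAD kinase. After GC correction *Me2* was called (adjusted p = 0.0499), and *Idh1* (0.0621) and *Nadk2* (0.153) were not. *Nnt*, the mitochondrial transhydrogenase, measured 21.8, 40.0 and 19.2 cpm in floxed and 24.4, 42.6 and 21.6 cpm in H3atKO samples and was not called (log2 fold change 0.15, adjusted p = 0.785). Of 11 genes of heme and iron, none was called by limma or edgeR, with 2 higher and 1 lower at an unadjusted p under 0.05. Over all 14967 genes, 3056 were higher and 3506 lower at that unadjusted p.

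In lipid peroxide defence, 1 of 11 genes was higher and 1 lower. *Lpcat3*, which places polyunsaturated fatty acids into phospholipids, rose (log2 fold change 1.59, adjusted p = 0.0292), and *Alox5*, a lipoxygenase, fell (log2 fold change -2.52, adjusted p = 0.0315), although not after GC correction (-1.55, adjusted p = 0.146). Of 17 targets of ATF4, the group to which *Slc7a11* also belongs, 1 was higher (*Vldlr*, a lipoprotein receptor, log2 fold change 1.78, adjusted p = 0.0296) and 1 lower (*Psat1* of serine synthesis, log2 fold change -1.28, adjusted p = 0.0386), with a median of -0.74 that became 0.63 after GC correction, where *Vldlr* was not called (adjusted p = 0.0506). *Atf4* itself measured 159, 152 and 109 cpm in floxed and 164, 142 and 50.7 cpm in H3atKO samples and was not called (log2 fold change -0.38, adjusted p = 0.532).

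Gpx1, Gpx3, Gpx4 and Txnrd1 contain selenocysteine, and the other selenoproteins with the enzymes that make this residue were therefore read as well. Of 20 tested, 4 were higher and 3 lower. *Selenop*, the carrier that delivers selenium between tissues, measured 1272, 1363 and 4147 cpm in floxed and 11361, 14383 and 19359.5 cpm in H3atKO samples and rose 7.62-fold (log2 fold change 2.93, adjusted p = 0.0208), also after GC correction (2.24, adjusted p = 0.0227). *Dio2*, the deiodinase that activates thyroid hormone, measured 0.263, 0.313 and 1.36 cpm in floxed and 49.3, 6.83 and 57.9 cpm in H3atKO samples and rose (log2 fold change 5.78, adjusted p = 0.0336). *Selenot* (log2 fold change 1.61, adjusted p = 0.0262) and *Sepsecs*, an enzyme of selenocysteine synthesis (log2 fold change 1.46, adjusted p = 0.0151), rose as well. *Selenow* (log2 fold change -3.36, adjusted p = 0.0433), *Selenom* (log2 fold change -2.72, adjusted p = 0.0328) and *Selenon* (log2 fold change -2.12, adjusted p = 0.0258) fell. Of these 7 genes, only *Selenop* was called after GC correction.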

How the data were processed

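RNA-seq of IngWAT was performed on 3 floxed and 3 H3atKO samples, each a pool of 2 or 3 mice. The authors trimmed reads with cutadapt 1.3, aligned them to GRCm38 with STAR 2.4.2a and deposited raw counts per Ensembl gene from HTSeq 0.6.1, with poly(A)-selected stranded libraries. The strand setting of the counting is not given in the sources used here. Tallies of reads assigned to no gene (37.3% to 51.7% of each file) were set aside. Reads aligned to several places made up 28.3% to 35.2% in floxed and 43.8% to 45.5% in H3atKO samples.

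Positions, exon lengths and transcript GC content were taken from GENCODE M21 (GRCm38), which matched 46005 of 46517 identifiers. Following the methods of the study, the 14967 genes that reached 1 cpm in 1 sample or more were scaled with TMM (edgeR 4.0.16) and tested with limma 3.58.1 voom in R 4.3.3, on genotype alone. P-values were adjusted by Benjamini-Hochberg over all genes and called under 0.05. At this depth 3 counts correspond to 0.0852 to 0.126 cpm, a floor for counting error only, since PCR copies were not marked.

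Alternatives were edgeR's quasi-likelihood test, DESeq2 1.42.0, library sizes or RLE factors in place of TMM, other filters, sample quality weights, a replicate block, GC correction, exclusion of the mitochondrial genome and omission of each sample. For GC correction, a robust loess curve (span 0.3) of each sample on GC content was subtracted, for the 14922 genes with a known content. Scripts were checked on simulated data. Samples with the same replicate number deviated together from their group means (r = 0.510, 0.389 and 0.264), while pairs of different numbers were at -0.05 or below. Centring each group of 3 samples on its mean pushes pairs of different numbers below 0 where same-numbered pairs are positive. The numbers may pair the samples, which this check cannot establish, and the labels state no shared origin.

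The members and lists were chosen with earlier results of these data known. Genes named in the text are the members, *Hdac3*, a set of genes named by function, up to 4 called genes per direction and list with the largest change, and the 5 genes most like *Slc7a11* in centred log2 cpm among genes with a mean of at least 1 log2 cpm. *Gpx8*, *Blvra* and some cell type markers were named outside these rules. Markers of 9 cell types were summed per sample. Trim16l was the listed symbol without a match.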

Additional observations from a re-analysis of the deposited data

How the results depend on the processing

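Of the 9 genes listed by function, the number called higher was 1 with library sizes alone, 1 without a filter and 4 with sample quality weights. The number called lower was 2 with edgeR, DESeq2 or at least 10 counts in every sample, and 3 with library sizes alone, sample quality weights or the replicate block. Leaving out each sample in turn gave 0 to 2 higher and 0 to 3 lower. Of the 204 related genes, the number called higher was 39 with DESeq2, 4 with library sizes alone, 38 with the replicate block and 45 with quality weights. The number called lower was 44 with edgeR, 58 with DESeq2, 94 with library sizes alone, 71 with quality weights, 81 with the replicate block, 11 with GC correction and 39 with both. Leaving out each sample gave 0 to 34 higher and 0 to 67 lower. Over all genes, leaving out any sample but floxed replicate 3 gave 0.00673% to 2.64% higher and 0% to 0.93% lower. The shares of all genes called higher and lower were 2.04% and 37.9% with library sizes alone, 4.32% and 5.25% without a filter, 12.6% and 15% with at least 10 counts, 26.7% and 29.7% with quality weights, 24.8% and 28.7% with the block, 12.8% and 18.4% with edgeR, 19.7% and 23.2% with DESeq2 and 18.5% and 25.9% without floxed replicate 3.

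Without floxed replicate 2, none of the 9 genes passed in limma, with 3 higher and 2 lower at an unadjusted p under 0.05, and none of the related genes, while 1 of 14860 genes passed in all. At that unadjusted p, 1926 of the 14860 genes were higher and 2407 lower. Without floxed replicate 3 the related genes were 34 higher and 67 lower, beside 18.5% and 25.9% of all genes. Without floxed replicate 1 or H3atKO replicate 1, 2 or 3, between 2 and 5 were higher and between 1 and 4 lower. In those fits 0.584% to 2.64% of all genes were called higher and 0.134% to 0.93% lower. Each omission lowers the residual degrees of freedom, and the counts differed with the sample that was left out. The reason for these differences was not tested.

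Directions turned for *Gsr* (-0.0304), *Txnrd1* (-0.65), *Nqo1* (-0.53) and *Hmox1* (-0.0329) with library sizes alone, where the median of all genes was -0.94. *Gpx4* turned to 0.98 with GC correction and to 1.06 with the replicate block and GC correction, and *Nqo1* ranged from -0.0409 to 1.00 when samples were left out. Among the 9 genes, the replicate block changed the calls of *Gclc*, *Gpx1* and *Gpx4* and no other. Of the related genes named by function it changed those of *Slc3a2*, *Gss*, *Txnrd2*, *Txnrd3* and *Bach1* and no other. It also changed the call of *Gpx8* and of related genes that are not named. The fit with at least 10 counts in every sample gave no value for *Slc7a11*. *Slc7a11* had 3 counts in floxed replicate 2, which limits the precision of its fold change, and with 3 pools per group a missed threshold does not show that levels were alike.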
